A study of Mus musculus with 4 samples.

Results

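The nuclear receptor superfamily in mouse liver was followed through nascent transcription with and without Hdac3. The 32 genes were taken by symbol, from HNF4, LXR, PXR, CAR, RXR, RAR and thyroid hormone receptor genes to the estrogen, glucocorticoid, mineralocorticoid and orphan receptor genes. They are 32 of the 20642 gene symbols in the deposited table, and 29 of them were among the 12705 active genes. Hdac3 encodes a histone deacetylase that works in the corepressor complexes which nuclear receptors bind. The assay was PRO-seq, which sequences the RNA that engaged polymerases extend in isolated nuclei. Livers came from C57BL/6 mice on postnatal day 14, and every mouse carried Alb-Cre, a Cre recombinase under the albumin promoter. WT mice had normal Hdac3 alleles, and KO mice had 2 conditional alleles or a conditional and a null one. The albumin promoter is active in cells of the hepatocyte lineage, so the other cells of a KO liver are not targeted. There were 2 libraries per genotype (WT1, WT2, KO1 and KO2), each from the pooled nuclei of 9 mice, so the spread between libraries is one between pools and not between mice.

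Nuclear receptors are transcription factors with a zinc finger domain that binds short DNA repeats and a pocket that, in many of them, binds a hormone, a lipid or a drug. Many work as heterodimers with an RXR. Without ligand, the thyroid hormone and retinoic acid receptors hold corepressor complexes that contain HDAC3, and ligand exchanges them for coactivators. In hepatocytes this family controls bile acid, lipid, glucose and drug metabolism, and HNF4A is a main keeper of hepatocyte identity.

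The 4 libraries had 16628518 to 26190040 reads on genes, with KO2 the shallowest. Promoter-proximal reads (the 50 bp window with most reads near the TSS) made up 10.3% and 9.38% of them in WT1 and WT2, and 13.6% and 17.0% in KO1 and KO2. The remaining reads fell in gene bodies, from 1 kb past the TSS to the termination site. Values are normalized reads, the read counts multiplied by the authors' factor of each library. Values of single genes are given in the order WT1, WT2, KO1, KO2. Sums over marker lists are given from low to high within each genotype instead. The labelled tissue was checked by its markers, and the 9 hepatocyte marker genes in the table were all active, with 279929 and 282712 normalized gene body reads in the WT libraries and 135941 and 141643 in the KO libraries. Of these, 6 were called down in KO and none was called up. The 10 stellate cell and fibroblast markers, all called up, summed to 10336 and 11868 normalized gene body reads in the WT libraries and 21892 and 23673 in the KO libraries. The 9 endothelial markers, 6 of them called up and 0 down, summed to 63757 and 69791 normalized gene body reads in the WT libraries and 107725 and 120262 in the KO libraries. Fewer cells of a type and less RNA made per cell cannot be told apart in bulk liver. The gene body reads of Hdac3 itself do not show the deletion (log2 fold change -0.14, adjusted p = 0.413 from limma), so the genotypes rest on the labels.

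Promoter sequences of 4 members are shown before the values, because the promoter-proximal reads come from the start of these transcripts. Hnf4a is the member that was called lower in both regions, Rarg rose most in its gene body, Nr2f2 rose most at its promoter-proximal region, and Rarb carries a repeat of receptor binding hexamers next to its start. Each line holds 250 bases before to 50 after an annotated RefSeq start on GRCm38.p6, and the windows are Hnf4a at chr2:163546905-163547204, plus strand, Rarg at chr15:102257473-102257772, minus strand, Nr2f2 at chr7:70366697-70366996, minus strand and Rarb at chr14:16575427-16575726, minus strand. These starts lie 5 to 67 bp from those of the transcripts that the authors counted. The lone capital marks the first transcribed base. The longer capitals in Rarg mark the hexamer AGGTCA read on the opposite strand, and in Rarb they mark 2 hexamers of the repeat with 5 bases between them.
Hnf4a: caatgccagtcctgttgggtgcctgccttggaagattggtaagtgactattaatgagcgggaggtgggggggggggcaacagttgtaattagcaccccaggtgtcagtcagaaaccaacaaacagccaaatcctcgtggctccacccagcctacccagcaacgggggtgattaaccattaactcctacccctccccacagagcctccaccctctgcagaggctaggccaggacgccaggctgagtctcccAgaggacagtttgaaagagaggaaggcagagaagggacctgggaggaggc
Rarg: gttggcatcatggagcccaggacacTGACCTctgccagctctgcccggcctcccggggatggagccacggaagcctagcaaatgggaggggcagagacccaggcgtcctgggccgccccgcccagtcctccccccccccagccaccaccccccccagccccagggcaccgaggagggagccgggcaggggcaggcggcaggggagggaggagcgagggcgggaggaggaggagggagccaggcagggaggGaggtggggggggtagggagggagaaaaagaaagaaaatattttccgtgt
Nr2f2: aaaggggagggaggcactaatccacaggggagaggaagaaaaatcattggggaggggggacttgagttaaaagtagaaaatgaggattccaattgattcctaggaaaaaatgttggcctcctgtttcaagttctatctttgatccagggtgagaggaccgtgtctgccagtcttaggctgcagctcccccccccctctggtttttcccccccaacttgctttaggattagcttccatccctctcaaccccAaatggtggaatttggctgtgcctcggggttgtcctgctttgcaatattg
Rarb: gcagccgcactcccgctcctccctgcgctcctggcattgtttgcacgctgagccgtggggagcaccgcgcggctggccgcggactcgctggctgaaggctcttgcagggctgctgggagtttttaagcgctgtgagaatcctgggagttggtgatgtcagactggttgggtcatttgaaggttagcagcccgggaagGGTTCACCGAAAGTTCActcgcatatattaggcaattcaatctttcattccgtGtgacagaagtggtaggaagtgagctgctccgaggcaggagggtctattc

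RefSeq windows were found for 29 of the 32 members. Exact matches were searched on both strands, and some motifs contain others, since each direct repeat of AGGTCA holds that hexamer, the core of many receptor sites. The hexamer AGGTCA occurred in 4 of these windows (Rarg, Thrb, Pparg and Nr5a2), against 16.3% of all 32851 windows. TATAAA occurred in 3 (Nr4a2, Nr5a2 and Esrrg), against 13.6% of all. No member window held CAAAGTCCA, an HNF4 site, which 0.475% of all windows held. None held 2 AGGTCA copies with 1 base or with 4 bases between them, the spacings known for HNF4 and PPAR and for LXR and thyroid hormone receptors, which 0.0396% and 0.0152% of all windows held. The spacing of 5 bases that RAR-RXR heterodimers prefer was searched with AGGTCA, allowing A or G at its start and G or T at the third base. It was found in the Rarb window only, starting 53 bases before the marked start, and in 0.0974% of all windows. The Rarb transcript that the authors counted starts 67 bp upstream of the marked start, so the repeat lies just inside that transcript. The Rarb promoter is a textbook target of retinoic acid receptors through such a repeat. This last search was added after the values were seen. Member windows were richer in CpG than most, with a median of 19 CpG and 63.3% GC, against 7 and 52.7% over all windows. Hnf4a, Nr1i2, Nr1i3, Nr2f2, Nr5a2 and Esr1 had 2 to 6 CpG each.

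Gene body reads per kb allow levels to be compared between genes. In WT liver, Hnf4a stood first of the 32 members, with 692 and 710.2 normalized reads per kb in WT1 and WT2. Rxra, the common partner of the liver receptors, was second with 428 and 441. The orphan receptor gene Nr2f6 (mean ± SD 255 ± 24.3, n = 2), the LXRalpha gene Nr1h3 (235 ± 14.1) and the CAR gene Nr1i3 (233 ± 16.4) followed, and did not differ from each other beyond their spread. Nr2f2, the PXR gene Nr1i2, Esrra, Rxrb, Rara and Nr1h2 lay between 202 and 105 on average. Lowest of the active members were Esrrg and Nr2f1, with means of 6.88 and 5.42 reads per kb, and below them lay the inactive Rxrg (3.58), Hnf4g (1.81) and Vdr (0.641).

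The order was different in KO liver. Nr2f2, sixth in WT, was first with 332 and 318 reads per kb in KO1 and KO2, ahead of Rxra with 288 and 287 and of Hnf4a with 227 and 258. Rarg moved from rank 15 to rank 7, and Nr1i2 from rank 7 to rank 13. Esr1 moved from rank 21 to rank 27. Summed over the members, the gene body level was 3298 and 3472 in WT and 2701 and 2748 in KO, and Hnf4a alone held 21.0% and 20.5% of that sum in WT1 and WT2 but 8.41% and 9.38% in KO1 and KO2.

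**Figure D1:**
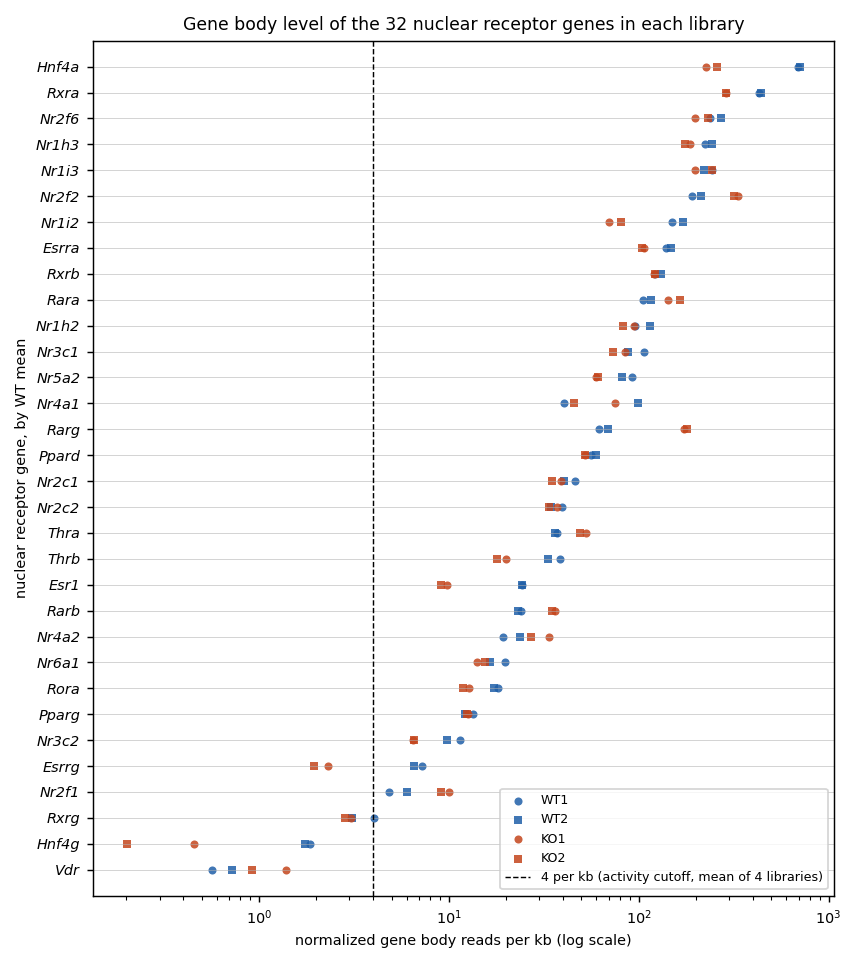
Normalized gene body reads per kb (log axis) of the 32 members in each library, ordered by the WT mean, with WT libraries in blue, KO libraries in red and the activity cutoff as a dashed line. Hnf4a has the highest WT values, 692 and 710.2, and both KO values of Nr2f2 lie above both of Hnf4a.

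The gene body comparison of KO with WT used limma over all active genes. Fold changes are on the log2(normalized reads + 1) scale, and a gene was called where its adjusted p fell under 0.05 and its change exceeded 0.6 in either direction. The genes of a retinoic acid receptor and of both COUP-TF receptors rose, and those of HNF4A, PXR, estrogen receptor alpha and the mineralocorticoid receptor were among those that fell. Of the 29 active members, 3 were called up (Rarg, Nr2f1 and Nr2f2), which is 10.3% against 10.4% of all active genes. Another 6 were called down (Esrrg, Hnf4a, Esr1, Nr1i2, Thrb and Nr3c2), 20.7% against 11.4%, and in either direction 21.8% of active genes were called. Esrrg passed the activity cutoff only through the WT libraries, and without it 5 were called down. With the cutoff applied after scaling libraries to 10000000 reads on genes, Nr2f1, Nr3c2 and Esrrg were below it and 26 members were active. Of these, 2 were called up and 4 down, beside 1006 and 1265 of 11103 active genes. At an adjusted p under 0.05 with any fold, 7 were higher and 13 lower, beside 17.0% and 22.1% of all active genes. In 7 members both KO libraries lay above both WT libraries and in 17 below, against 27.6% and 42.8% of active genes. The median log2 fold change was -0.24 over the members and -0.09 over all active genes.

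**Figure D2:**
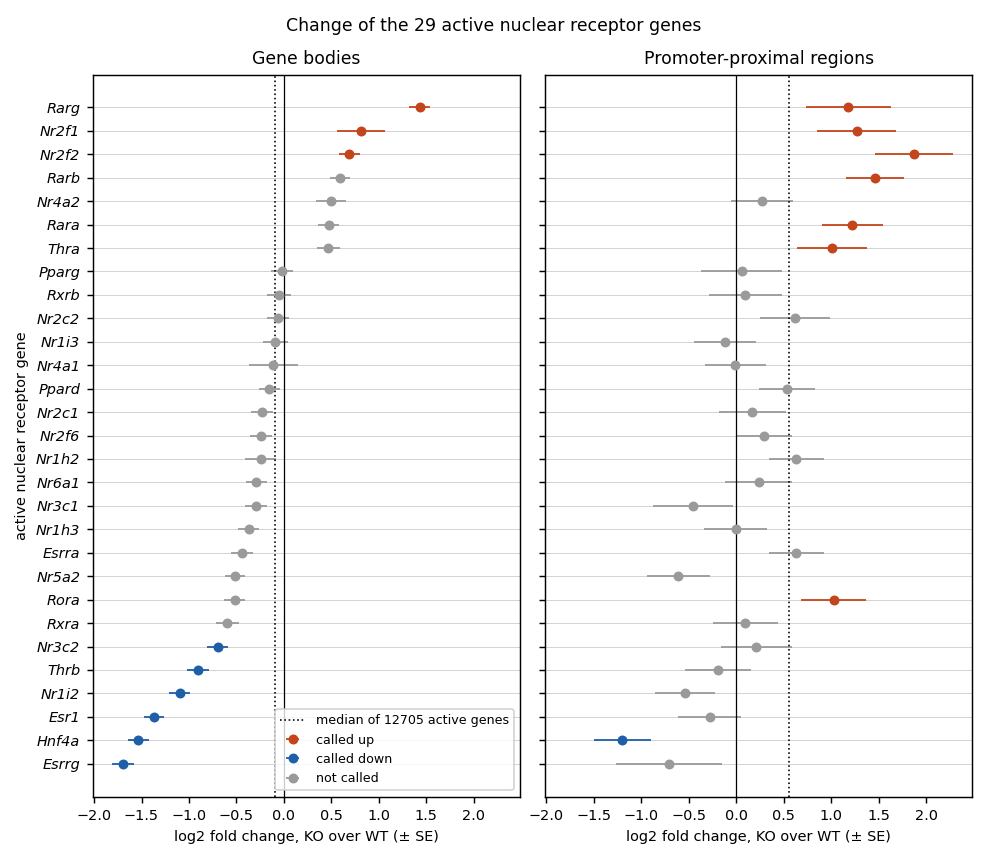
Log2 fold change (KO over WT) of the 29 active members in gene bodies (left) and promoter-proximal regions (right), with bars for the standard error from limma, called members in red (up) and blue (down), and the median of all 12705 active genes as a dotted line. Rarg, Nr2f1 and Nr2f2 were called up on both sides and Hnf4a was called down on both. On the right side, DESeq2 kept the call of Nr2f2 but not those of Rarg and Nr2f1. Rora was called up on the right side only, with -0.52 on the left, a promoter-proximal call that was lost with any library left out.

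Hnf4a (chr2:163506808-163572910, plus strand) encodes the orphan receptor that activates much of the hepatocyte program. Its normalized gene body reads were 17104 and 17557 in WT and 5615 and 6374 in KO. Both KO values were lower than either WT value (log2 fold change -1.53, standard error 0.11, adjusted p = 2.61e-10 from limma), and the gene was called in every fit that left out a library. Its promoter-proximal reads were 625 and 527 in WT and 246 and 252 in KO, also without overlap (log2 fold change -1.20, standard error 0.30, adjusted p = 0.00121 from limma). This promoter-proximal call was lost without WT1 and without WT2, fits that also called fewer falls over all active genes. Hnf4g, the paralog, was not active, with gene body reads of 281 and 264 in WT and 69.0 and 30.4 in KO. Hnf4a held 99.7% to 99.9% of the reads per kb of this pair. These KO values of Hnf4g, from 65 and 20 counted reads, also lay below those in WT, and a fit with no activity filter gave an adjusted p of 0.0976 (limma).

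Of the genes for receptors that sense foreign compounds, Nr1i2 was called and Nr1i3 was not. Nr1i2 (chr16:38248323-38294824, minus strand) encodes PXR, which induces drug-metabolizing enzymes. Its gene body reads were 6807 and 7833 in WT and 3168 and 3665 in KO, so both KO libraries were lower (log2 fold change -1.10, standard error 0.11, adjusted p = 5.11e-08 from limma). Nr1i3 encodes CAR, which shares many targets with PXR. Its gene body reads were 948 and 858 in WT and 764 and 939.8 in KO, with overlapping genotypes (log2 fold change -0.09, standard error 0.13, adjusted p = 0.622 from limma). Nr1i3 overlaps Tomm40l on the other strand, and strand use in gene body counting is not stated. The LXR genes, whose products sense oxysterols, did not reach the fold threshold. Nr1h3 had 2261 and 2462 in WT and 1884 and 1763 in KO, lower in both KO libraries (log2 fold change -0.37, standard error 0.11, adjusted p = 0.00964 from limma). Nr1h2 had 316 and 378 in WT and 309.8 and 273 in KO, a log2 fold change of -0.25 that did not pass the test (adjusted p = 0.231, limma).

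RXR proteins are the partners of LXR, PXR, CAR, PPAR, RAR and thyroid hormone receptors. Rxra (chr2:27676440-27762957, plus strand) supplied most of their transcription, with 36472 and 37529 normalized reads in WT and 24529 and 24463 in KO. Both KO libraries were lower, by an amount just short of the fold threshold (log2 fold change -0.59, standard error 0.12, adjusted p = 0.00035 from limma), and without WT1 it was called down. Rxrb had 680.4 and 734 in WT and 676 and 685 in KO, and the genotypes overlapped (log2 fold change -0.05, adjusted p = 0.764, limma). Rxrg was below the activity cutoff in the mean, with 163 and 125 in WT and 123 and 114 in KO. Per kb, the 3 genes summed to 554 and 575 in WT and 412 and 413 in KO, and the share of Rxra went from 77.3% and 76.6% to 69.9% and 69.6%.

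The 3 retinoic acid receptor genes were all higher in KO, and in each of them both KO libraries lay above both WT libraries. Rarg (chr15:102234938-102257517, minus strand) had 1327 and 1495 normalized reads in WT and 3721 and 3866 in KO (log2 fold change 1.43, standard error 0.11, adjusted p = 6.74e-10 from limma). This was the largest rise of any member, 2.69-fold, and it was called in all 4 fits with a library left out. Rarb (chr14:16430839-16819156, minus strand) had 3436 and 3335 in WT and 5224 and 4988 in KO (log2 fold change 0.59, standard error 0.11, adjusted p = 8.21e-05 from limma). Rara (chr11:98927818-98974942, plus strand) had 3828 and 4229 in WT and 5187 and 5984 in KO (log2 fold change 0.47, standard error 0.11, adjusted p = 0.00161 from limma). Both changes passed the test but stayed under the fold threshold, which Rarb crossed with median-of-ratios or TMM scaling, both of which set the median gene near 0. Per kb, the 3 genes summed to 191 and 209 in WT and 352 and 379 in KO. Rara held 55.2% and 55.7% of this in WT and 40.6% and 43.5% in KO, whereas Rarg went from 32.2% and 33.1% to 49.0% and 47.3%. Rarb overlaps Top2b on the other strand. The stellate cell and endothelial marker sums given above rose in the same libraries, and their part in the RAR rises was not tested.

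Both COUP-TF genes, Nr2f1 and Nr2f2, were called up. Nr2f2 (chr7:70351944-70366735, minus strand) encodes COUP-TFII, a mostly repressive receptor known from veins and mesenchyme as well as liver. Its gene body reads were 2634 and 2935 in WT and 4582 and 4382 in KO, higher in both KO libraries (log2 fold change 0.69, standard error 0.11, adjusted p = 1.77e-05 from limma). Nr2f1 (chr13:78188973-78199757, minus strand), encoding COUP-TFI, was far lower, with 43.6 and 54 normalized reads in WT and 90.2 and 82.0 in KO, from 38 to 85 counted reads (log2 fold change 0.81, standard error 0.25, adjusted p = 0.0125 from limma). With these few reads, DESeq2 gave an adjusted p of 0.0823, and Nr2f1 kept its call in 1 of 4 fits with a library left out. The third member of the branch, Nr2f6, was not called (log2 fold change -0.24, adjusted p = 0.116, limma), with 1622 and 1857 in WT and 1359 and 1585 in KO. Nr2f6 overlaps Ocel1 on the other strand. Nr2f1 and Nr2f2 overlap A830082K12Rik and B130024G19Rik there, which are not protein-coding. Of the other members called in gene bodies, Hnf4a, Thrb, Nr3c2 and Esrrg also overlap genes of this kind on the other strand. The same sums of stellate cell and endothelial markers moved with Nr2f1 and Nr2f2, and their part in these rises was not tested either.

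The thyroid hormone receptor genes Thrb and Thra changed in opposite directions. Thrb (chr14:17660261-18038090, plus strand), the main thyroid hormone receptor gene of the liver, had 14459 and 12486 normalized reads in WT and 7573 and 6770.1 in KO (log2 fold change -0.91, standard error 0.11, adjusted p = 9.31e-07 from limma). Thra (chr11:98740638-98769006, plus strand) had 824 and 807 in WT and 1170.1 and 1089 in KO (log2 fold change 0.47, standard error 0.12, adjusted p = 0.00317 from limma), a rise under the fold threshold. The genotypes did not overlap in either gene. Their sum per kb, 75.5 and 69.5 in WT and 72.8 and 67.0 in KO, overlapped between genotypes, while the share of Thra went from 49.1% and 52.2% to 72.3% and 73.1%. Thra overlaps Nr1d1 on the other strand, and Nr1d1 was itself called up (log2 fold change 0.83, adjusted p = 5.85e-05, limma). Without stated strand use, reads of the 2 genes cannot be told apart where they overlap.

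**Figure D3:**
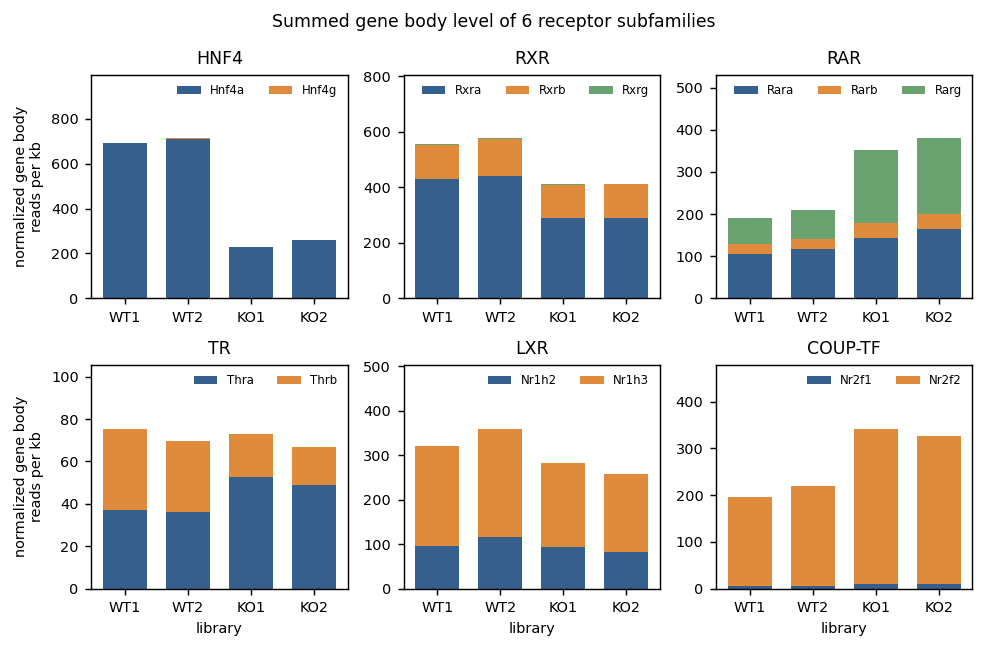
Stacked bars of normalized gene body reads per kb in each library for 6 receptor subfamilies, with 1 color per gene. The HNF4 and RXR bars are shorter in both KO libraries and the RAR and COUP-TF bars taller, while the TR bars overlap in height and differ in composition.

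The estrogen receptor gene Esr1 and the related genes Esrra and Esrrg were lower in KO. Esr1 (chr10:4611593-5005614, plus strand) encodes estrogen receptor alpha. Its gene body reads were 9445 and 9540 in WT and 3813 and 3549.8 in KO (log2 fold change -1.37, standard error 0.11, adjusted p = 6.9e-10 from limma). Esrrg (chr1:187608791-188214885, plus strand), an estrogen-related receptor gene of energy metabolism, had 4370.2 and 3951 in WT and 1394 and 1186 in KO (log2 fold change -1.69, standard error 0.12, adjusted p = 1.17e-10 from limma). Its long gene body made this 7.22 and 6.53 reads per kb in WT1 and WT2, and 2.30 and 1.96 in KO1 and KO2, below the cutoff of 4. Esrra, a partner of the PGC-1 coactivators, had 1372 and 1454 in WT and 1050.2 and 1025 in KO, lower in both KO libraries by less than the fold threshold (log2 fold change -0.44, standard error 0.12, adjusted p = 0.00357 from limma). Esrra overlaps Trmt112 on the other strand. Genotypes did not overlap in any of these 3 genes.

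Among the corticoid receptor genes, Nr3c2 (chr8:76899442-77245012, plus strand), encoding the mineralocorticoid receptor, was called down. Its gene body reads were 3888 and 3323 in WT and 2197 and 2229 in KO (log2 fold change -0.70, standard error 0.11, adjusted p = 2.08e-05 from limma), and without WT1 its log2 fold change was -0.59, under the threshold. Nr3c1, encoding the glucocorticoid receptor, had 8067 and 6645 in WT and 6387 and 5558 in KO, a smaller change in the same direction (log2 fold change -0.30, adjusted p = 0.0482, limma). Rora, a receptor of the clock and of lipid metabolism, had 13144 and 12515 in WT and 9275 and 8647 in KO (log2 fold change -0.52, standard error 0.11, adjusted p = 0.000538 from limma). Nr5a2, encoding LRH-1, an activator of bile acid synthesis genes, had 10719.5 and 9415 in WT and 6944 and 7115 in KO (log2 fold change -0.52, adjusted p = 0.000603, limma). In both Rora and Nr5a2 the KO libraries lay below the WT libraries, but the change stayed under the fold threshold.

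The other active members changed little or varied within a genotype. Nr4a2, an early response gene, was higher in both KO libraries (304 and 376 in WT and 530.4 and 428 in KO), with a log2 fold change of 0.49 (adjusted p = 0.0147, limma) under the fold threshold. Nr4a1, of the same kind, differed more within WT than between genotypes, with 281 and 687 in WT and 519 and 319 in KO. The PPAR genes Ppard and Pparg, receptors for fatty acids, had log2 fold changes of -0.15 and -0.02 (adjusted p = 0.274 and 0.896, limma), and Pparg read 1712 and 1561 in WT and 1617 and 1603 in KO. Nr2c1 and Nr2c2, the testicular receptors, had -0.23 and -0.06 and did not pass the test either, and Nr2c2 overlaps Mrps25 on the other strand. Nr6a1, the germ cell nuclear factor, had -0.29 (adjusted p = 0.0477, limma). Vdr, the vitamin D receptor gene, was not active and had 29.8 and 38 normalized reads in WT and 73.2 and 48.6 in KO, higher in both KO libraries but from 26 to 69 counted reads only.

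At promoter-proximal regions, the receptors of retinoic acid, both COUP-TF genes, Thra and Rora gained reads, and Hnf4a lost them. Of the 29 active members, 7 were called up (Nr2f2, Rarb, Nr2f1, Rara, Rarg, Rora and Thra), 24.1% against 25.8% of all active genes, and 1 was called down (Hnf4a), 3.45% against 2.20%, with 28.0% of active genes called in either direction. Both KO libraries lay above both WT libraries in 11 members and below in 5, against 61.9% and 6.72% of active genes. Active genes as a whole were shifted up here, with a median log2 fold change of 0.56 over active genes and 0.21 over the members. Of the members, 65.5% had a value above 0, against 84.2% of active genes. Of the active genes called here, 92.1% were up, but 40.2% were when scaling within the region (median-of-ratios or TMM) set the median near 0.

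Nr2f2 showed the largest promoter-proximal rise. Its normalized reads were 16.1 and 13 in WT and 63.6 and 48.6 in KO, from 14, 13, 60 and 32 counted reads (log2 fold change 1.87, standard error 0.41, adjusted p = 0.000152 from limma). Rarb, whose window carries the repeat shown above, had 201 and 184 in WT and 516 and 547 in KO (log2 fold change 1.46, standard error 0.31, adjusted p = 7.57e-05 from limma). These 2 genes stood 1.31 and 0.90 above the median of active genes, and remained called when scaling within the region set that median near 0. Rara had 153 and 110 in WT and 248 and 372 in KO (log2 fold change 1.22, standard error 0.32, adjusted p = 0.00204 from limma). Nr2f1 had 14.9 and 15 in WT and 32.9 and 42.5 in KO (log2 fold change 1.27, standard error 0.42, adjusted p = 0.0158 from limma). In all 4 genes the genotypes did not overlap.

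Rarg had few promoter-proximal reads for its gene body, 6.88 and 13 in WT and 24.4 and 21.3 in KO, from 6, 13, 23 and 14 counted reads (log2 fold change 1.18, standard error 0.45, adjusted p = 0.0355 from limma). It lost the call with any library left out. Thra had 44.7 and 45 in WT and 78.5 and 106 in KO (log2 fold change 1.01, standard error 0.37, adjusted p = 0.028 from limma), and DESeq2 gave an adjusted p of 0.0513. Rora had 87.2 and 68 in WT and 173 and 144 in KO (log2 fold change 1.03, standard error 0.34, adjusted p = 0.0167 from limma), opposite in sign to its gene body, and it too lost the call with any library left out (adjusted p from 0.0743 to 0.323, limma). Scaling within the region, by median-of-ratios or TMM, left 2 of the 7 rises and added 4 falls (Nr1i2, Nr1i3, Nr5a2 and Esr1) to that of Hnf4a. Without KO2, the library with the largest promoter-proximal share, Nr2f2 and Rarb were the only rises called, and without WT2 only Rarb was.

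Calls in the 2 regions were set side by side. All 3 members called up in the gene body were also called up at the promoter-proximal region, as were 67.7% of the active genes called up in the gene body. With DESeq2, Nr2f2 kept this promoter-proximal call (adjusted p = 0.00466), while Nr2f1 and Rarg did not (adjusted p = 0.0811 and 0.203). Of the 6 called down in the gene body, Hnf4a alone was called down at the promoter-proximal region, beside 17.0% of the active genes called down in the gene body. The other 5 had promoter-proximal log2 fold changes of 0.21 (Nr3c2), -0.19 (Thrb), -0.28 (Esr1), -0.54 (Nr1i2) and -0.71 (Esrrg), and none passed the test (adjusted p from 0.176 to 0.672, limma). Relative to the median of active genes these were -0.35, -0.75, -0.84, -1.10 and -1.27. Nr1i2 read 271 and 238 in WT and 146 and 208 in KO and Esr1 193 and 147 in WT and 118 and 162 in KO, and only in Esr1, of this pair, did the genotypes overlap. For 4 members (Rara, Rarb, Thra and Rora) the promoter-proximal region was called up without the gene body, and 16 were called in neither. Of the 9932 active genes not called in the gene body, 23.7% were called up at the promoter-proximal region and 76.0% were not called there.

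The pausing index, promoter-proximal over gene body read density, differed widely among the members. In WT it was 1.68 and 1.22 for Nr2f2 and 2.23 and 3.75 for Rarg, the lowest of the 29. It was 4.71 and 5.67 for Rxra and 18.1 and 14.8 for Hnf4a. At the other end Rarb had 168 and 158, with Esr1, Nr4a2 and Ppard next, all above 100 in both WT libraries. The RAR genes ranged from low (Rarg) over 28.9 and 18.9 (Rara) to high (Rarb).

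Between genotypes, the index was called up in 3 members (Rora, Esr1 and Esrra), 10.3% against 12.4% of active genes. It was called down in 0 by limma, with 0 members lower at an unadjusted p under 0.05, against 0.519% of active genes called down. Rora had 96.1 and 78.7 in WT and 270.0 and 242 in KO (log2 difference 1.54, standard error 0.38, adjusted p = 0.00381 from limma). Esr1 had 159 and 120.4 in WT and 241 and 358 in KO (log2 difference 1.09, standard error 0.38, adjusted p = 0.0393 from limma). Esrra had 82.4 and 73.6 in WT and 159.9 and 169 in KO (log2 difference 1.08, standard error 0.39, adjusted p = 0.0451 from limma). In all 3 the KO libraries lay above the WT libraries while the gene body was lower. The median log2 difference was 0.54 over the members and 0.61 over all active genes, so Esr1 and Esrra stood 0.47 and 0.47 above the shared shift and Rora 0.93. With scaling within each region no member was called, and 1 was higher and 2 were lower at an unadjusted p under 0.05 (limma). Rarg kept its low index in KO, with 2.83 and 2.37 (log2 difference -0.25, adjusted p = 0.705, limma). The calls moved with the library left out, and so did the median log2 difference over all active genes. That median was 0.85 without KO1, 0.38 without KO2, 0.68 without WT1 and 0.55 without WT2.

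**Figure D4:**
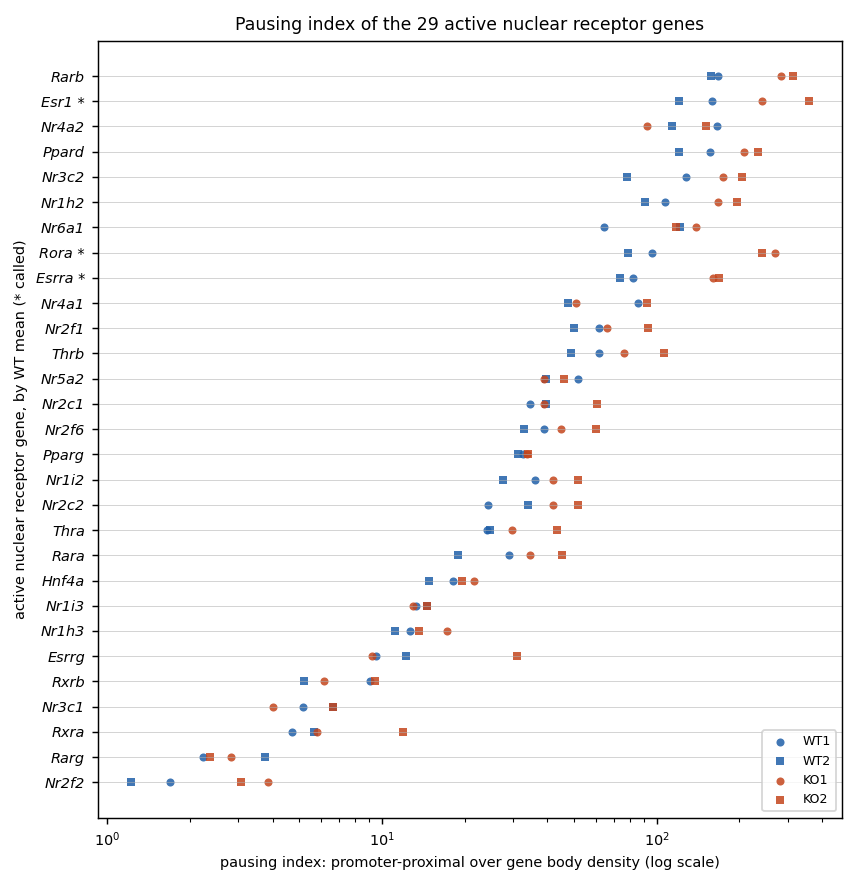
Pausing index (promoter-proximal over gene body density, log axis) of the 29 active members in each library, WT in blue and KO in red, ordered by the WT mean, with called members starred. Nr2f2 and Rarg lie at the low end and Rarb at the high end, and the KO points of Rora, Esr1 and Esrra lie to the right of their WT points.

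Enhancers were listed by the authors from reads pooled over all 4 libraries. The list used here gives their positions and linked genes, and their levels by genotype were not analysed here. Of the 2282 listed enhancers, 16 had a member as their closest gene. They fell to 7 of the 29 active members (24.1%), against 10.9% of the 12705 active genes, and this difference was not tested. Nr2f2 had 8 of them, all between 257490 and 940725 bp away, the nearest at chr7:70624236-70625855. Single enhancers lay 5367 bp from Nr5a2 (chr1:136965815-136968264), 6350 bp from Esr1 (chr10:4603998-4605696), 16147 bp from Pparg (chr6:115342618-115345074) and 22037 bp from Rarb (chr14:16597247-16598848), inside the Rarb gene. Rxra had 2, at chr2:27592034-27601398 and chr2:27620729-27627331, and Nr3c1 also had 2. Of those of Nr3c1, the one at chr18:39519022-39520518 overlaps the annotated start of the gene, 31777 bp from the start of the counted transcript. Of the 14 members called in any of the 3 measures, Rarb, Nr2f2 and Esr1 had a closest enhancer and the other 11 had none. Hnf4a, one of these, lay within 50 kb of the one at chr2:163594334-163598148, nearer to Ttpal. Within 50 kb, 7 members (24.1%) had an enhancer, against 9.83% of active genes. Positions are those of mm10.

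Nuclear receptor genes outside the 32 were looked up by a list of 17, of which 7 were active, with 2 called up and 3 down in gene bodies. Nr1h5, encoding an FXR relative that binds lanosterol, rose (155 and 154 in WT and 499 and 501 in KO, log2 fold change 1.69, standard error 0.16, adjusted p = 9.7e-09 from limma). Nr0b2, encoding the repressor SHP, fell (log2 fold change -1.51), as did Ppara (-1.07), the fatty acid receptor gene of fasting liver. Nr1d1, also called up, is given with Thra. Of 16 coregulator genes, all active, 0 were called up and 2 down. Both are coactivator genes, Ppargc1a, which encodes PGC-1alpha (7414 and 7199 in WT and 1770.5 and 1351 in KO, log2 fold change -2.24, standard error 0.12, adjusted p = 3.73e-12 from limma), and Ppargc1b (-0.70). The corepressor gene Ncor1, which encodes a scaffold of the HDAC3 complex, had -0.11 and did not pass the test (adjusted p = 0.437, limma).

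Known targets of the members were compared in lists, by counts of called gene bodies and by medians, without a test of the list. Over all active genes, 10.4% were called up and 11.4% down, with a median of -0.09. HNF4A targets stood lowest, with 10 of 13 called down, 0 up and a median log2 fold change of -1.54. Among them the sterol hydroxylase gene Cyp8b1 fell by 3.00 on the log2 scale, the clotting factor genes F9 and F7 by 1.97 and 1.86, and Apoa1 by 1.76. The list shares genes with the hepatocyte markers above, among them Apoa1, Apob and Ttr. Those markers had 6 of 9 called down, 0 up and a median of -0.90. Glucocorticoid receptor targets followed, with 7 of 9 called down, 0 up and a median of -0.96. The metallothionein gene Mt1 (fell by 2.27), Zbtb16 (-1.82), the tyrosine aminotransferase gene Tat (-1.42) and the clock gene Per1 (-0.96) were among them, while the receptor gene Nr3c1 itself had -0.30. Mt1 varied within WT, with 1269 and 369 in WT and 169.7 and 117 in KO. Of 6 active thyroid hormone targets, 1 was called up, Thrsp, a lipogenic gene (2.43), and 2 down, the deiodinase gene Dio1 (-1.50) and Klf9 (-0.86), and the median was -0.44.

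Other target lists were mixed. Retinoic acid targets had 2 of 8 active genes called up, 0 down and a median of 0.41, with Cyp26b1, a retinoic acid hydroxylase gene, at 0.70 (adjusted p = 2.49e-05, limma). Cyp26a1 and Dhrs3, with 0.41 and 0.06, did not pass the test. PPAR targets had 5 of 12 called up and 4 down (median 0.40), from Cyp4a10 (1.77), Fabp4 (1.44) and the lipid droplet gene Cidec (0.97) to Plin4 (-1.61). CAR and PXR targets had 4 of 12 called up and 2 down (median 0.18). Cyp2b13 (2.46), Cyp3a11 (1.28) and Cyp2b10 (0.98) rose and the P450 reductase gene Por fell (-0.96), beside the fall of Nr1i2. The Cyp genes of these lists and Mt1 have close copies among which reads could be split, so their values are uncertain. LXR targets had 2 of 10 called up and 3 down (median -0.13). The sterol transporter genes Abcg5 (-2.32) and Abcg8 (-2.01) and Srebf1 (-0.88) fell, and the desaturase gene Scd1 rose (1.71).

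**Figure D5:**
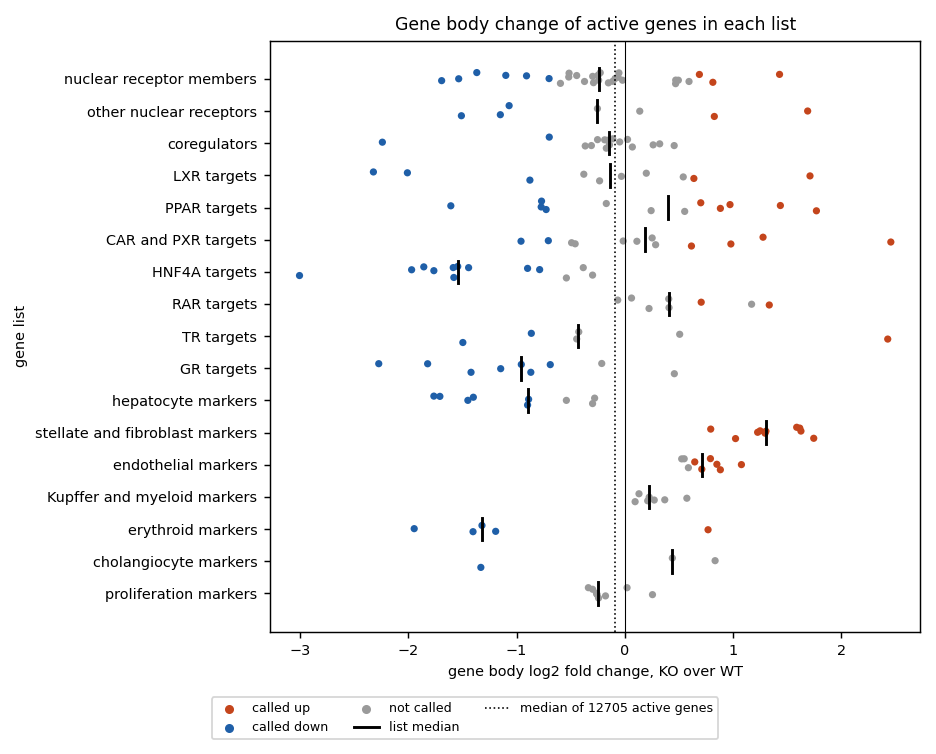
Gene body log2 fold change (KO over WT) of each active gene in the member list, the target and coregulator lists and the cell type marker lists, colored by call, with black bars for list medians and a dotted line for the median of all active genes. HNF4A targets (median -1.54) lie lowest of the target lists, stellate cell and fibroblast markers (median 1.30) and endothelial markers (median 0.71) lie to the right of 0, and the members spread to both sides.

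The markers of the remaining cell types moved less evenly. Of 7 Kupffer and myeloid markers, 0 were called in either direction in gene bodies by limma (median 0.22), and their sums were 17691 and 17893 normalized gene body reads in the WT libraries and 19401 and 23053 in the KO libraries. Of 5 active erythroid markers, 4 were called down and 1 up (median -1.32), and the sums were 948 and 1166 normalized gene body reads in the WT libraries and 496 and 564 in the KO libraries. Of 3 active cholangiocyte markers, 1 was called down and 0 up, with a median of 0.44 that differs in sign from the change of the sums over all 7 listed, 3068 and 3240.1 normalized gene body reads in the WT libraries and 1555 and 1763 in the KO libraries. Of 8 proliferation markers, 0 were called (median -0.25), with 4816 and 4851 normalized gene body reads in the WT libraries and 4245 and 4297 in the KO libraries. None of the markers in the table was at 0 in all libraries, and what these shifts add to the members' changes was not tested.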

How the data were processed

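PRO-seq libraries of livers from WT and Hdac3 KO mice were grouped by genotype from the labels. Per the labels and methods, the authors trimmed reads with cutadapt, aligned them to mm10 with Bowtie2 and counted and normalized them with NRSA. The authors deposited read counts of WT2, whose factor is 1, and scaled signal values (counts multiplied by a factor per library, not whole numbers) of the other libraries. Dividing by the factors gave whole reads for 100% of values within 0.001 reads. Every sample column was mapped, leaving 0 unmapped, and the list of enhancers from pooled libraries was used as deposited.

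For each symbol, the transcript with the largest promoter-proximal mean was kept. Genes with promoter-proximal reads above 0 and on average more than 4 normalized reads per kb of gene body were called active. Because values were normalized, limma 3.58.1 (R 4.3.3, trend, no block) was fitted to log2(normalized reads + 1) over all 12705 active genes in place of the count test of the study, and the pausing index was tested as log2 of the ratio of densities, each from reads + 1. Pausing indices printed per library have no pseudocount. P-values were adjusted by Benjamini-Hochberg. Scripts were tested on simulated data. Alternatives were edgeR 4.0.16 and DESeq2 1.42.0 on recovered reads, other scalings, filters, pseudocounts, transcripts and thresholds, a replicate block, and fits without 1 library. Tables and plots used Python 3.11.15, numpy 2.4.6, pandas 2.3.3, scipy 1.17.1 and matplotlib 3.10.9. Gene positions came from GENCODE on GRCm38, which is the assembly of mm10, and promoters from RefSeq on GRCm38.p6.

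The members and lists were chosen with earlier results of these data known. Lists held other nuclear receptors, coregulators, targets of LXR, PPAR, CAR and PXR, HNF4A, RAR, TR and GR, and markers of hepatocytes, stellate cells and fibroblasts, endothelium, Kupffer and myeloid cells, erythroid cells, cholangiocytes and proliferation. Ugt1a1, Mt2, Tf and Adgre1 had no values here. Called members are given with every library, and other lists by up to 4 called genes with the largest gene body change and a mean of at least 50 reads. Nr1d1 and the uncalled genes named in lists were added after their values were seen. Some list genes are counted but not reported here by name. The libraries hold 16628518 to 26190040 reads on genes, and genes with few reads are less precise.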

Additional observations from a re-analysis of the deposited data

How the results depend on the processing

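Counts of called members moved with filters and scaling more at promoter-proximal regions than in gene bodies. In gene bodies, 3 members were called up and 6 down. Without the activity filter these were 1 and 3, without a fold threshold 7 and 13, and with an absolute log2 fold change over 1 the rises were 1. Leaving out 1 library gave 2 to 4 up and 6 to 7 down. The activity cutoff after scaling to 10000000 reads, which the study's methods describe, gave 2 up and 4 down. Over all genes tested, up and down calls numbered 406 and 589 without the filter and 1006 and 1265 with this cutoff. In the main fit they numbered 1324 and 1449. Of 7 promoter-proximal rises, 0 remained in limma without the activity filter (10 at an unadjusted p under 0.05), 2 with median-of-ratios and 2 with TMM scaling within each region, 4 with DESeq2, and 1 to 5 with a library left out. The 1 promoter-proximal fall became 0 without the filter (1 at an unadjusted p under 0.05), 5 under either scaling within each region, and 0 to 1 with a library left out, 0 without WT1 or WT2. The 3 rises in pausing index became 1 with a pseudocount of 0.1, 5 with one of 10 and 0 without the filter (7 at an unadjusted p under 0.05, limma). They became 0 with median-of-ratios and 0 with TMM scaling within each region, and also moved with the library left out. Over all genes tested, index rises numbered 1574 in the main fit, 1132 and 2343 with these pseudocounts, 0 without the filter, and 6 and 8 with these scalings. Promoter-proximal rises numbered 3282 in the main fit, 0 without the filter, 634 and 638 with these scalings and 2669 with DESeq2. Promoter-proximal falls numbered 280 in the main fit, 0 without the filter, and 942 and 949 with these scalings. With WT1, WT2 or KO2 left out, fewer rises and fewer falls were called over all active genes than in the main fit. Members linked to an enhancer numbered 7 by closest gene and 26 by 4DGenome contacts (89.7% of active members, against 75.8% of active genes). The filter sets which genes are tested, and the cause of the other shifts was not tested.

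Same-numbered libraries did not deviate together (correlations of 0.019 in gene bodies, -0.105 at promoter-proximal regions and -0.069 in pausing index), and the main fit did not pair them. With 2 libraries per genotype, these correlations cannot show whether same-numbered pools were processed together. With the replicate block, 3 and 6 gene bodies, 4 promoter-proximal rises, 1 fall and 1 pausing index rise were called. A crossed pairing, chosen after seeing the data, gave 3 and 6 gene bodies, 9 rises, 1 fall and 7 pausing index rises. Over all 12705 active genes, promoter-proximal and pausing index rises numbered 1772 and 186 with the block and 4861 and 4109 with the crossed pairing. Over single genes and 20 settings, 1097 of 1208 values kept their side of the threshold, 80 fell below it, 31 rose above it and 0 called values reversed. The 1097 include 52 values past no threshold that changed sign. Few reads limit the values of Nr2f1 and the promoter-proximal values of Rarg, Nr2f2 and Esrrg. Each genotype has 2 pools, and limma draws the variance of each gene toward a trend over all active genes. Its p-values therefore rest on the spread between pools over many genes, not on the pools of the gene alone, and do not measure the spread between mice.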
